A study of Tachysurus vachellii with 6 samples.

Results

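Glycolysis splits glucose into pyruvate in 10 enzyme steps in the cytosol. Gluconeogenesis runs most of the same steps backwards, with its own enzymes, phosphatases among them, at the irreversible points. Hexokinase, phosphofructokinase and pyruvate kinase are the control points, and the payoff steps from glyceraldehyde-3-phosphate dehydrogenase onwards return ATP without using oxygen. Most steps are served by several isozymes, among them forms that in vertebrates are known as muscle forms. The genes described here are those that the annotation of the deposited table places in the KEGG glycolysis and gluconeogenesis entry and not in the citrate cycle entry. Of 87 rows with the glycolysis entry, 8 that also carry the citrate cycle entry and 3 lactate dehydrogenase rows were left out, which gave 76 rows among the 28288 genes of the table. Of these, 52 reached 1 FPKM (fragments per kilobase of transcript, scaled to the library's mapped total; a level per length) in at least 3 of 6 libraries, the rule that chose the 15312 genes tested.

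The tissue was gill of the hybrid yellow catfish, a cross of Tachysurus fulvidraco females with Pseudobagrus vachellii males. The hypoxia group was kept for 96 h in water with 1.5 mg/L of dissolved oxygen and the normoxia group in water with 6.5 mg/L, after acclimation and a fast that both groups shared. Each group had 9 fish, and the RNA of every 3 fish was pooled, which gave 3 libraries per group. The spread between libraries is therefore a spread between pools, and fewer cells of a type and less RNA per cell cannot be told apart in such bulk samples.

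Total counts ran from 44762764 to 55016223 per library. Gill epithelium markers summed to 6607 to 9690 FPKM in normoxia and 5326 to 7925 FPKM in hypoxia, and 0 of 16 tested markers were called. Ionocyte markers stood at 387 to 613 and 518 to 721 FPKM with 0 of 9 called, while foxi3 was listed at 0.0001 FPKM, the table's entry for a count of 0, and cftr stayed under 1 FPKM in every library. Red blood cell markers (3329 to 7268 against 3885 to 4689 FPKM) had 0 of 6 called. The B cell markers (13.4 to 32.4 against 6.12 to 8.63 FPKM, 1 of 2 lower), the neutrophil markers (164 to 167 against 79.8 to 111 FPKM, 1 of 3 lower) and the mucous cell markers (471 to 866 against 187 to 380 FPKM, 0 of 11 called, median log2 change -0.997) stood below normoxia in all hypoxia libraries. So did the T cell markers (105 to 123 against 77.8 to 95.0 FPKM, 0 of 3 called) and the neuron markers (33.0 to 45.4 against 19.8 to 32.8 FPKM, 0 of 4 called). These sums are of unscaled FPKM, in which 25.9% of all tested genes showed that order and 11.4% the opposite one. Endothelium and pillar cell markers (46.8 to 60.0 against 33.9 to 54.7 FPKM, 1 of 7 lower) and macrophage markers (126 to 152 against 120.9 to 130 FPKM, 1 of 5 lower) overlapped between the groups. At an unadjusted p under 0.05, edgeR had 2 gill epithelium, 1 ionocyte, 1 red blood cell, 2 T cell, 1 neuron and 5 mucous cell markers lower and 1 ionocyte marker higher. DESeq2 called 2, 0, 0, 1, 1 and 4 of the same 6 lists lower and 1 ionocyte marker higher, and limma called 2 gill epithelium markers and 1 T cell marker lower. In the lists with an edgeR call, 2 B cell, 1 endothelium, 1 neutrophil and 1 macrophage marker were lower and 1 macrophage marker higher at that unadjusted p, and DESeq2 called 2, 1, 1 and 1 of these markers lower and limma 1 in each list. Over all tested genes, 5.39% were called higher and 4.15% lower at an edgeR adjusted p under 0.05. In lists this small, 0 calls is near that share. The part that these cell types have in the results was not tested.

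Of the 52 genes, 13 were higher in hypoxia and 1 was lower, at an adjusted p under 0.05 in edgeR's quasi-likelihood test over all tested genes; among all tested genes, 5.39% were called higher and 4.15% lower, or 9.54% in either direction. The median log2 change of the 52 was 0.21, against -0.04 over all tested genes, and 33 of the 52 had a log2 change above 0, as did 47.1% of all tested genes. With library totals in place of TMM scaling both medians moved down by about the same amount, to 0.04 and -0.20, and the genes called over the whole table split into 364 higher and 812 lower in place of 825 and 636; the 52 then held 11 higher and 1 lower. Leaving out 1 library lowered the 13 to 6 (normoxia replicate 3) or 7 (normoxia replicate 2 or hypoxia replicate 2) and to 9, 11 and 12 for hypoxia replicate 1, hypoxia replicate 3 and normoxia replicate 1. The 825 higher genes of the whole table fell to 68 without normoxia replicate 2, to 95 without normoxia replicate 3, to at most 130 without hypoxia replicate 1 or 2, to 372 without hypoxia replicate 3 and to 490 without normoxia replicate 1. Log2 changes below carry TMM scaling, with their SE, while FPKM values are as deposited and do not. Of the 22 tested genes of the glycolysis steps, 12 were higher and 0 lower, with a median log2 change of 0.93; DESeq2 called 13 of them higher and limma 11, and neither called any lower, nor was any lower at an unadjusted p under 0.05. The remaining 30 tested genes held 1 higher and 1 lower, with a median of 0.06.

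The 10 steps leave out ADP-dependent glucokinase, whose genes are counted among the 22. Ranked by mean FPKM over all 6 libraries, which lets the hypoxia values help to pick the gene, the most abundant gene of each of the 10 steps was higher in hypoxia, with log2 changes from 0.82 to 2.21 and a median of 1.39. Ranked on normoxia alone, 8 of 10 were higher and the median was 1.20; the ranking then puts LOC113657219 first for hexokinase and LOC113647783 first for aldolase, neither of which was called. Every hypoxia library lay above every normoxia library in FPKM for 8 of the 10 genes ranked on normoxia alone. Among all tested genes 11.4% showed that order. It held for all 10 genes of the first ranking, which the hypoxia values helped to pick. Summed over the 22 genes, the level was 1285, 1091 and 1452 FPKM in normoxia replicates 1, 2 and 3 and 2907, 3109 and 3064 FPKM in the hypoxia replicates.

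**Figure D1:**
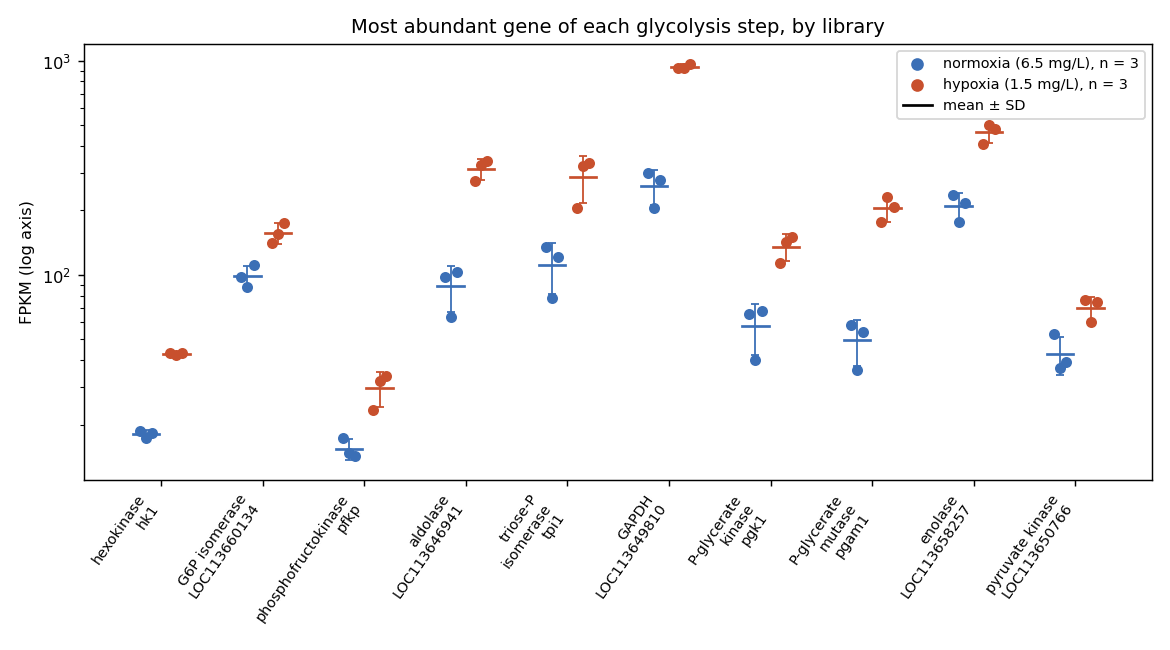
FPKM (log axis) of the most abundant gene (by mean over all 6 libraries) of each of the 10 glycolysis steps in the 3 normoxia and 3 hypoxia libraries; points are libraries, horizontal lines are means and vertical bars are SDs. In each step the hypoxia libraries lie above the normoxia libraries, from hk1 (17.2 to 18.8 against 42.1 to 43.3 FPKM) to pyruvate kinase LOC113650766 (36.6 to 52.8 against 60.2 to 76.2 FPKM).

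The entry step was carried by a pair of hexokinases at like levels. Hexokinase 1 (hk1, scaffold NW_020848052.1, bases 3097875 to 3116489), which phosphorylates glucose and so traps it in the cell, stood at 18.8, 17.2 and 18.4 FPKM in normoxia and at 43.3, 42.1 and 43.1 FPKM in hypoxia. The groups were far apart and each was tight, and hk1 rose by a log2 change of 1.40 ± 0.13 (SE, n = 3 libraries per group; edgeR adjusted p = 0.00509). The gene described as hexokinase-2-like, LOC113657219, stood at 21.9, 16.9 and 18.8 FPKM in normoxia and at 38.8, 21.6 and 41.7 FPKM in hypoxia. Hypoxia replicate 2 lay inside the normoxia range, and its log2 change of 0.98 ± 0.26 missed the threshold (edgeR adjusted p = 0.0584), though it was 0.0415 without hypoxia replicate 2 and 0.00304 with DESeq2. A putative HKDC1 hexokinase, LOC113661028, lies 5184 bases from hk1 on the same strand of that scaffold and reached at most 0.164 FPKM. Glucokinase (gck), the low-affinity hexokinase of liver, reached at most 0.0336 FPKM. The ADP-dependent glucokinases LOC113659655 (12.8, 15.7 and 8.73 FPKM against 6.62, 7.94 and 12.9) and adpgk (4.99, 4.49 and 5.29 FPKM against 2.76, 3.43 and 7.02), which use ADP as phosphate donor, overlapped between the groups and were not called.

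Glucose-6-phosphate isomerase, which turns glucose-6-phosphate into fructose-6-phosphate, was nearly all from LOC113660134. It stood at 97.8, 87.8 and 111 FPKM in normoxia and at 141, 155 and 175 FPKM in hypoxia, with no overlap. Its log2 change was 0.82 ± 0.14 (edgeR adjusted p = 0.0240). This was the smallest change among the leading genes of the steps. Its adjusted p was 0.0590 when hypoxia replicate 1 was left out, 0.0709 for hypoxia replicate 2, 0.0800 for normoxia replicate 2 and 0.0625 for normoxia replicate 3, so that each of these ended the call.

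Phosphofructokinase, the committed step, had 3 tested genes. All 3 were called higher, but pfkl reached 1 FPKM in only 1 normoxia library and passed the filter through the hypoxia libraries, so its call, which is among the 13, gives the count no support. The platelet type pfkp, the most abundant, stood at 17.4, 14.7 and 14.2 FPKM in normoxia and at 23.5, 32.1 and 33.6 FPKM in hypoxia (log2 change 1.09 ± 0.16, edgeR adjusted p = 0.0183; 0.0545, 0.0712 and 0.0625 with hypoxia replicate 2, normoxia replicate 2 or normoxia replicate 3 left out). LOC113645387, described as liver type-like, stood at 9.48, 6.90 and 9.81 FPKM against 23.3, 25.1 and 40.9 FPKM. It rose by a log2 change of 1.91 ± 0.22 (edgeR adjusted p = 0.0110), and in hypoxia replicate 3 it stood above pfkp. The gene named pfkl was scarce, at 0.354, 0.438 and 1.11 FPKM against 2.11, 5.02 and 1.84 FPKM. Its log2 change of 2.41 ± 0.59 was the largest among the 52 genes and the least certain of the calls (edgeR adjusted p = 0.0496), and it lost the call whichever library was left out (adjusted p 0.0630 to 0.153). It was also not called with library totals (0.0608), with limma (0.0597 and 0.0595 with pseudocounts of 1 and 0.1) or with other filters on low values (0.0581 and 0.0608).

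Aldolase cleaves fructose bisphosphate into a pair of triose phosphates. The aldolase C gene LOC113646941, whose mammalian counterpart is known from brain, stood at 98.3, 63.8 and 103 FPKM in normoxia and at 274, 325 and 341 FPKM in hypoxia. The groups were far apart, and the log2 change was 1.98 ± 0.22 (edgeR adjusted p = 0.00885). The aldolase B gene LOC113647783, the form known from liver and kidney, stood at 147, 152 and 155 FPKM against 204, 252 and 140 FPKM. Hypoxia replicate 3 lay below all normoxia libraries, and the log2 change of 0.57 ± 0.25 was not called (edgeR adjusted p = 0.173; 0.0431 without hypoxia replicate 3). Triosephosphate isomerase (tpi1), which interconverts the triose phosphates, stood at 134.6, 78.2 and 120.9 FPKM against 205, 323 and 331 FPKM. It rose by a log2 change of 1.51 ± 0.26 (edgeR adjusted p = 0.0248), and the call ended when replicate 2 or 3 of hypoxia (0.0731 and 0.0541) or replicate 2 or 3 of normoxia (0.0685 and 0.0768) was dropped.

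Glyceraldehyde-3-phosphate dehydrogenase reduces NAD+ while it adds phosphate to the triose. LOC113649810 (scaffold NW_020847880.1, bases 1611129 to 1622680) was the most abundant of all 52 genes, at 299, 206 and 276 FPKM in normoxia and at 924, 921 and 967 FPKM in hypoxia. The hypoxia libraries lay close together and far above normoxia, and the log2 change was 2.01 ± 0.20 (edgeR adjusted p = 0.00666). The gene that carries the symbol gapdh is described as a partial sequence and has another orthology entry, K00134 against K10705 for LOC113649810. The gapdh gene had a different pattern, given with aldoa and eno3. Phosphoglycerate kinase (pgk1), the first of the ATP-yielding steps, stood at 65.4, 40.1 and 68.0 FPKM against 114, 143 and 150 FPKM. Its log2 change was 1.38 ± 0.22 (edgeR adjusted p = 0.0234; 0.0555, 0.0696 and 0.0579 with hypoxia replicate 1, hypoxia replicate 2 or normoxia replicate 3 left out).

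Phosphoglycerate mutase moves the phosphate group in preparation for the last ATP-yielding step, and it had the largest change among the leading genes. Its gene pgam1 (scaffold NW_020848328.1, bases 3712484 to 3715223) stood at 58.2, 35.9 and 54.3 FPKM in normoxia and at 177, 232 and 208 FPKM in hypoxia. The lowest hypoxia library was far above the highest normoxia library, and the log2 change was 2.21 ± 0.23 (edgeR adjusted p = 0.00760). Beside this step, bisphosphoglycerate mutase (bpgm), which makes the haemoglobin effector of red cells in mammals, was near the filter at 1.04, 1.52 and 1.25 FPKM against 0.550, 0.802 and 1.48 FPKM and was not called (log2 change -0.30 ± 0.43, edgeR adjusted p = 0.683). The inositol polyphosphate phosphatase minpp1 stood at 11.6, 13.4 and 10.3 FPKM against 7.45, 8.96 and 7.91 FPKM. All its hypoxia values lay below all its normoxia values, an order that 25.9% of all tested genes showed in unscaled FPKM, and its log2 change of -0.37 ± 0.17 was not called (edgeR adjusted p = 0.186).

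Enolase was nearly all from the alpha-enolase gene LOC113658257, at 235, 176 and 218 FPKM in normoxia and 408, 503 and 481 FPKM in hypoxia. It rose by a log2 change of 1.30 ± 0.17 (edgeR adjusted p = 0.0156; 0.0519, 0.0563 and 0.0579 with hypoxia replicate 2, normoxia replicate 2 or normoxia replicate 3 left out). A second alpha-enolase-like gene, LOC113642811, stood at 7.39, 8.03 and 8.57 FPKM against 8.22, 7.39 and 6.16 FPKM, with a log2 change of 0.04 ± 0.20. Pyruvate kinase, the last step, was carried by the PKM gene LOC113650766 at 52.8, 36.6 and 39.2 FPKM against 76.2, 60.2 and 74.8 FPKM. Its log2 change of 0.88 ± 0.20 passed narrowly (edgeR adjusted p = 0.0451). The call held without normoxia replicate 1 (0.0400) and was lost without any other single library (0.0810 to 0.138), with library totals (0.0584), with limma at a pseudocount of 0.1 (0.0527) and with other filters on low values (0.0605 and 0.0552).

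**Figure D2:**
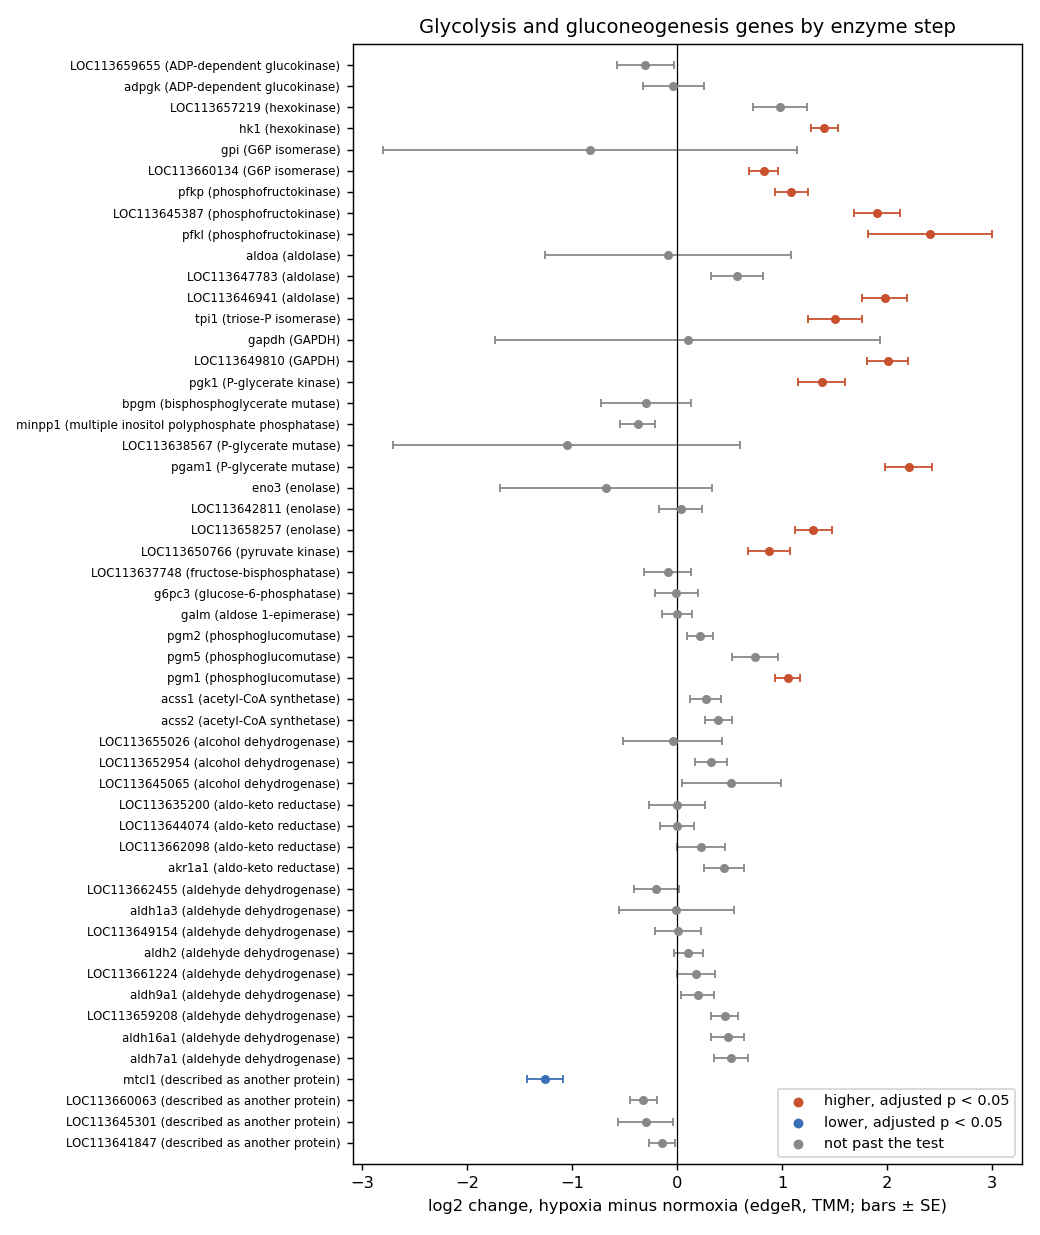
Log2 change (hypoxia minus normoxia, TMM-scaled edgeR fit) with SE bars for the 52 tested genes, ordered by enzyme step from top to bottom. The 12 higher genes of glycolysis sit between 0.82 and 2.41, pgm1 is the only higher gene below them and mtcl1 the only lower one, and the widest bars belong to gpi, gapdh, LOC113638567, aldoa and eno3.

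Of the 12 glycolysis genes that were higher, 5 were called in each of the 6 fits that leave out 1 library: hk1, LOC113645387, LOC113646941, LOC113649810 and pgam1. They belong to hexokinase, phosphofructokinase, aldolase, glyceraldehyde-3-phosphate dehydrogenase and phosphoglycerate mutase. The number of all tested genes called higher in each of the 6 fits was not counted. It can be at most 68 of 15312, the number called higher without normoxia replicate 2. When all rows of a step were summed, each of the 10 glycolysis steps had all hypoxia libraries above all normoxia libraries. Among all tested genes 11.4% showed that order. The step sums include the leading genes, which showed it already, and so are no separate support. The ratio of the mean summed FPKM ran from 1.57 for glucose-6-phosphate isomerase and 1.62 for pyruvate kinase to 2.96 for glyceraldehyde-3-phosphate dehydrogenase and 3.98 for phosphoglycerate mutase, and with TMM scaling from 1.77 to 4.47. These sums include gapdh, aldoa and eno3. ADP-dependent glucokinase, whose genes are counted among the glycolysis genes, was set apart from the 10 steps. Its summed FPKM overlapped between the groups, with a ratio of 0.78, and 0.86 with TMM scaling.

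Neither of the tested gluconeogenic phosphatases was called. Fructose bisphosphatase, which reverses the phosphofructokinase step, was measured almost wholly from the isozyme 1 gene LOC113637748. It stood at 55.1, 52.4 and 57.7 FPKM in normoxia and at 48.0, 55.4 and 34.0 FPKM in hypoxia, with overlap, and its log2 change was -0.09 ± 0.22 (edgeR adjusted p = 0.817). Its neighbour LOC113637689, an isozyme 2-like gene 481 bases away on the same strand, reached at most 0.681 FPKM. Glucose-6-phosphatase 3 (g6pc3), the widely expressed form in mammals, stood at 5.23, 4.20 and 5.89 FPKM against 4.21, 4.53 and 4.92 FPKM (log2 change -0.01 ± 0.20, edgeR adjusted p = 0.985). The liver form g6pc reached at most 0.351 FPKM in any library. The log2 changes of g6pc3 and of LOC113637748 turned sign when single libraries were left out, and that of g6pc3 also under other scalings.

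Of the 24 tested genes of the side steps, 1 was called higher and 0 lower. That is near the 5.39% higher and 4.15% lower over all tested genes. The call was in phosphoglucomutase. The enzyme interconverts glucose-1-phosphate and glucose-6-phosphate and so ties glycolysis to glycogen and to sugar nucleotides. Its gene pgm1 stood at 14.004, 12.6 and 15.3 FPKM in normoxia and at 23.3, 26.6 and 28.1 FPKM in hypoxia. The log2 change was 1.05 ± 0.12 (edgeR adjusted p = 0.0109), and it was called in each fit that leaves out 1 library. The pgm2 values were 7.65, 7.57 and 8.14 FPKM against 7.63, 7.34 and 9.47 FPKM, with overlap (log2 change 0.22 ± 0.13, edgeR adjusted p = 0.284). The pgm5 values were 1.60, 2.56 and 1.98 FPKM against 3.04, 3.09 and 3.03 FPKM. All its hypoxia values lay above all its normoxia values, an order that 11.4% of all tested genes showed. The log2 change of 0.74 ± 0.22 missed the threshold (edgeR adjusted p = 0.0755), while DESeq2 called it (adjusted p = 0.0214). Aldose 1-epimerase (galm), which interconverts the anomers of glucose, stood at 10.5, 13.4 and 11.6 FPKM against 9.94, 10.3 and 11.5 FPKM. Its log2 change of 0.00 ± 0.14 had no stable sign across scalings.

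Among the 18 tested alcohol, aldehyde and acetyl-CoA enzymes, 0 were called in either direction by edgeR, and their log2 changes ran from -0.20 to 0.52. Over all tested genes 9.54% were called in either direction, so with 18 genes 0 calls is near that share. At an unadjusted p under 0.05, 4 were higher and 0 lower; DESeq2 called 4 higher and limma 0. The most abundant was mitochondrial aldehyde dehydrogenase aldh2, which oxidises acetaldehyde, at 109, 105 and 106 FPKM against 97.5, 112 and 97.8 FPKM. Its log2 change was 0.11 ± 0.14 (edgeR adjusted p = 0.639) and took the opposite sign with library totals (-0.07). The class 3 alcohol dehydrogenase LOC113652954, a class known for formaldehyde oxidation, stood at 34.8, 32.0 and 30.8 FPKM against 35.8, 40.5 and 32.5 FPKM (log2 change 0.32 ± 0.16, edgeR adjusted p = 0.213). The aldo-keto reductase akr1a1 stood at 29.4, 19.4 and 24.9 FPKM against 27.5, 33.9 and 28.6 FPKM (log2 change 0.45 ± 0.19, edgeR adjusted p = 0.173). Cytosolic acetyl-CoA synthetase acss2, which activates acetate, stood at 15.9, 14.6 and 15.6 FPKM against 14.8, 17.7 and 22.3 FPKM. Its log2 change of 0.39 ± 0.13 was not called (edgeR adjusted p = 0.0976), but it was called by DESeq2 (0.0463) and with a correction for transcript length (0.0492). LOC113661224, a fatty aldehyde dehydrogenase-like gene, overlaps its neighbour LOC113661223 at one end, and reads from the shared stretch cannot be assigned with certainty.

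The table places 8 rows in the entry under descriptions of other proteins, and 4 of them were tested. One was the only lower gene of the 52, mtcl1, described as microtubule cross-linking factor 1. It stood at 3.84, 4.22 and 3.11 FPKM in normoxia and at 1.25, 1.34 and 1.61 FPKM in hypoxia (log2 change -1.26 ± 0.17, edgeR adjusted p = 0.0159; 0.0532 without hypoxia replicate 2 and 0.0603 without normoxia replicate 2). Its orthology entry is that of acetyl-CoA synthetase, and it lies 11733 bases from the acetyl-CoA synthetase-like gene LOC113645343, which reached at most 1.008 FPKM. The most abundant of the 4 was LOC113660063, a ubiquitin-conjugating enzyme variant-like gene, at 27.2, 35.8 and 30.9 FPKM against 19.6, 23.5 and 24.2 FPKM (log2 change -0.32 ± 0.13, edgeR adjusted p = 0.149).

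The balance between isozymes was compared by log2 ratios of FPKM within each library, which need no scaling between libraries. Of 25 ratios to the most abundant gene of a step, 5 were lower in all hypoxia libraries, 2 were higher in all and 18 overlapped. The reference genes were picked by mean FPKM over all 6 libraries, so the hypoxia values helped to pick them. A gene that rises in hypoxia is thereby favoured as reference, and ratios to it then fall. On normoxia alone, LOC113657219 and LOC113647783 would be the references for hexokinase and aldolase. With 3 libraries against 3 the exact permutation test cannot give a two-sided p under 0.1, which each ratio without overlap had. The smallest adjusted p over the 25 ratios was 0.357, so none passed. Among the 7 ratios whose groups did not overlap, the difference was largest in aldolase. The log2 ratio of aldolase B (LOC113647783) to aldolase C (LOC113646941) was 0.80 ± 0.38 (SD, n = 3) in normoxia and -0.69 ± 0.51 in hypoxia. Aldolase C held 26.8% to 39.7% of the aldolase FPKM in the normoxia libraries and 51.9% to 70.3% in the hypoxia libraries. The most abundant form was thus B in each normoxia library and C in each hypoxia library.

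In phosphofructokinase the log2 ratio of the liver type-like gene LOC113645387 to pfkp was -0.84 ± 0.28 (SD, n = 3) in normoxia and -0.03 ± 0.32 in hypoxia. Its share of the step was 31.3% to 39.0% in normoxia and 40.3% to 53.6% in hypoxia. The share of pgm1 in phosphoglucomutase was 55.4% to 60.2% in normoxia and 68.6% to 71.8% in hypoxia, and the log2 ratio of pgm2 to pgm1 went from -0.84 ± 0.09 to -1.68 ± 0.15. The hexokinase ratio of LOC113657219 to hk1 went from 0.08 ± 0.13 to -0.39 ± 0.50, with hypoxia replicate 2 at -0.96; the difference was -0.47, and -0.18 without that library. The log2 ratio of the alpha-enolase-like gene LOC113642811 to LOC113658257 went from -4.71 ± 0.27 to -6.002 ± 0.34.

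**Figure D3:**
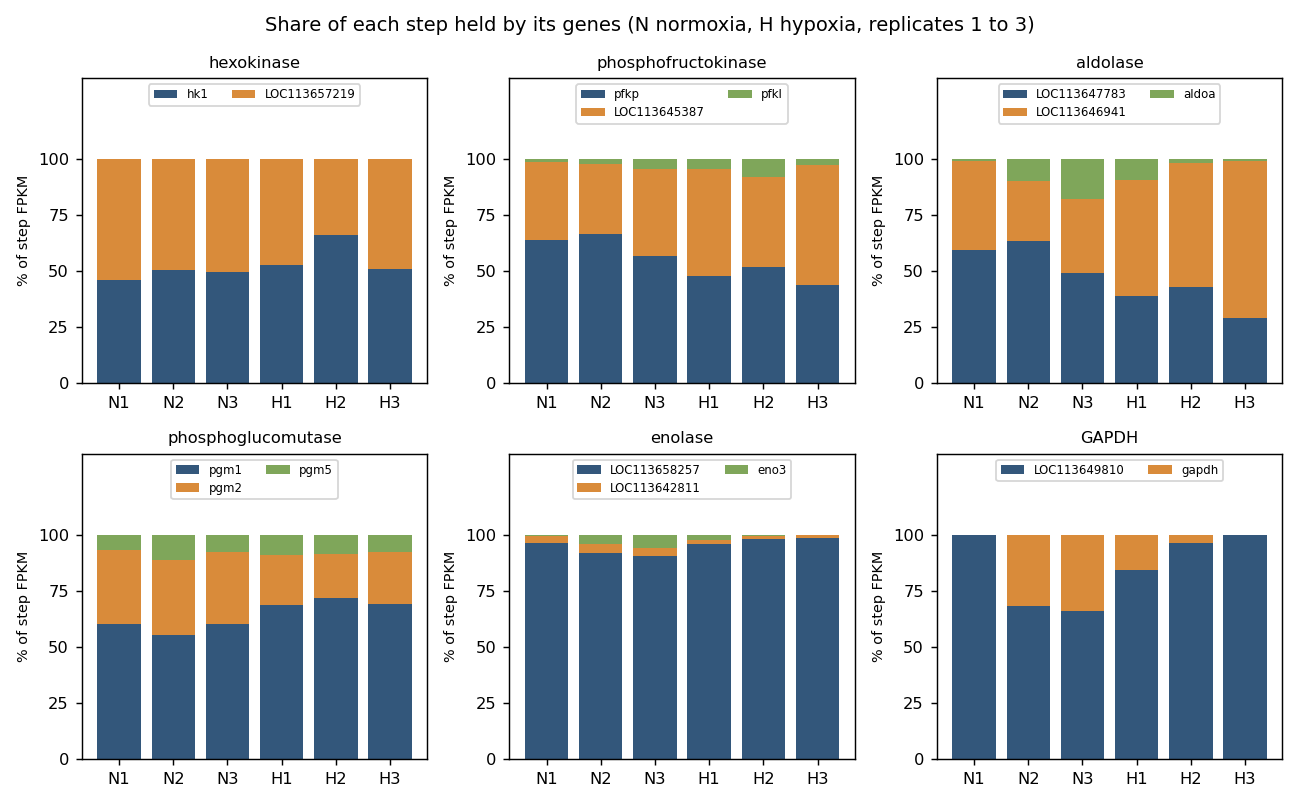
Share (%) of the summed FPKM of 6 enzyme steps held by each tested gene, in normoxia (N) and hypoxia (H) replicates 1 to 3; bars are single libraries. Aldolase C (LOC113646941), liver type-like phosphofructokinase (LOC113645387) and pgm1 hold larger shares in every hypoxia library than in any normoxia library, while the shares of gapdh, aldoa and eno3 are largest in normoxia 3 and small in normoxia 1 and hypoxia 3.

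Several genes, picked after their values were seen, were highest in the same 3 libraries, which came from both groups. Aldolase A and beta-enolase are forms known from skeletal muscle, while the annotation gives gapdh no tissue form. The gapdh gene stood at 0.0951, 96.0 and 143 FPKM in normoxia and at 173, 36.2 and 2.33 FPKM in hypoxia. Aldolase A (aldoa) stood at 2.53, 23.2 and 55.8 FPKM against 49.4, 10.5 and 4.06 FPKM. Beta-enolase (eno3) stood at 1.31, 7.70 and 13.7 FPKM against 8.98, 1.85 and 1.05 FPKM. These 3 libraries were normoxia replicates 2 and 3 and hypoxia replicate 1. The fast skeletal muscle markers, 18 of which were tested and 0 called, summed to 22.6, 210 and 449 FPKM in normoxia and to 440, 100.6 and 43.3 FPKM in hypoxia, and 16 of the 18 had the same 3 highest libraries. The slow and cardiac muscle markers, 0 of 10 called, summed to 6.98, 51.4 and 56.9 FPKM against 48.4, 18.1 and 17.2 FPKM. In neither muscle list did a marker reach an unadjusted p under 0.05 or a call by DESeq2 or limma. Over all tested genes edgeR called 9.54% in either direction, so in lists this small 0 calls is near that share.

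That order of libraries was found in 8 of the 52 genes (15.4%) and in 3.47% of all tested genes. The 8 include gapdh, aldoa and eno3, whose values set the order. They also include gpi and LOC113638567, which passed the filter only through these libraries. The shares are therefore a description, not a test, and give the pattern no support. Besides gapdh, aldoa and eno3 it held for gpi, phosphoglycerate mutase 2 (LOC113638567), LOC113642811, the class 3-like alcohol dehydrogenase LOC113655026 and the aldehyde dehydrogenase LOC113649154, the last 3 with small differences between libraries. Muscle-type phosphofructokinase pfkm, the pyruvate kinase LOC113660077 and the acetyl-CoA synthetase-like gene LOC113645343, which failed the filter, showed it too. LOC113645343 stood at 0.412 to 1.008 FPKM in those libraries and at 0.172 to 0.400 FPKM in the others. Both gpi and LOC113638567 passed the filter at exactly 3 libraries: gpi with 1.39, 3.07 and 1.93 FPKM in those libraries and LOC113638567 with 1.72, 5.22 and 1.91 FPKM. Just outside it, pfkm peaked at 1.86 FPKM, LOC113660077 at 2.56 FPKM and the alcohol dehydrogenase LOC113655030 at 2.27 FPKM, each over 1 FPKM in 2 libraries. The genes that failed the filter were not tested, and none of the tested genes with that order was called. SEs were wide for gpi, aldoa, eno3, gapdh (log2 change 0.10 ± 1.83) and LOC113638567 (-1.05 ± 1.65, the lowest change among genes not called). The SE was 0.20 for LOC113642811, 0.22 for LOC113649154 and 0.47 for LOC113655026, against a median of 0.21 over all tested genes.

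**Figure D4:**
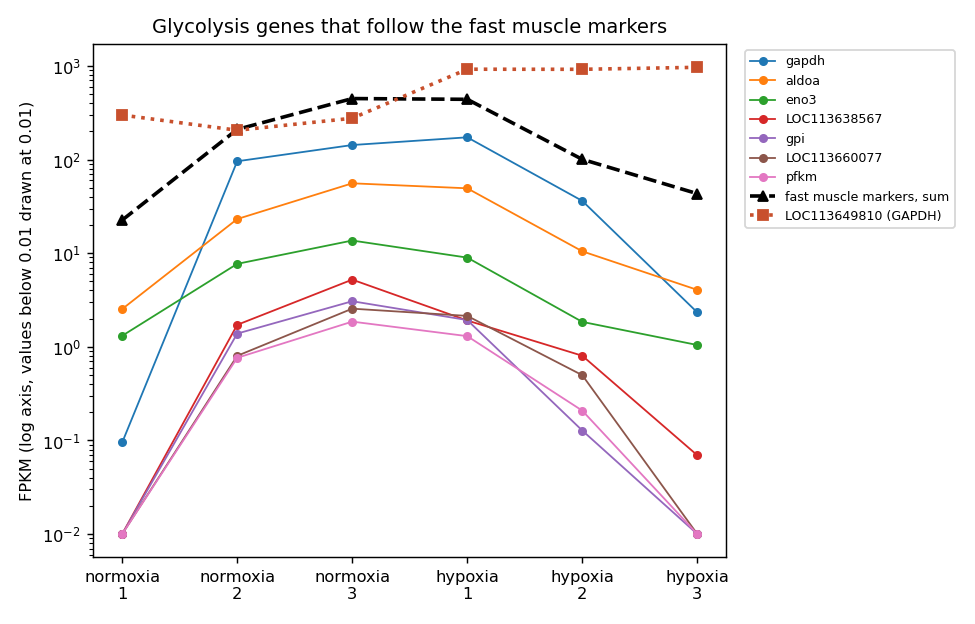
FPKM (log axis) of gapdh, aldoa, eno3, LOC113638567, gpi, LOC113660077 and pfkm by library, with the summed fast muscle markers (dashed) and the leading GAPDH gene LOC113649810 (dotted); lines only join the values of a gene. The 7 genes and the markers are high in normoxia 2, normoxia 3 and hypoxia 1, whereas LOC113649810 is at 206 to 299 FPKM in normoxia and 921 to 967 FPKM in hypoxia.

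The leading genes of the glycolysis steps could not share that order, since all their hypoxia libraries lay above all their normoxia libraries. The part of muscle RNA in the results was not tested.

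Of the 24 rows that failed the filter, 20 stayed under 1 FPKM in every library, 5 of them with a count of 0 throughout, and 4 reached 1 FPKM. The 5 without a count were the aldolase C genes LOC113636461 and LOC113646921, pyruvate kinase LOC113647808, fructose bisphosphatase LOC113653251 and glucose-6-phosphatase LOC113653608. Near-identical copies can share reads, and the sources used here do not give how the counting treated them, so values of single paralogs are uncertain to that extent.

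Genes of 5 pathway lists that branch from glycolysis are set beside the 5.39% higher and 4.15% lower calls and the median log2 change of -0.04 over all tested genes. Of 12 tested glycogen genes, 3 were higher and 0 lower, with a median log2 change of 0.14. All 3 take part in glycogen synthesis. Glycogen synthase (gys1) stood at 10.7, 8.37 and 13.8 FPKM in normoxia and at 31.0, 32.4 and 33.6 FPKM in hypoxia (log2 change 1.72 ± 0.19, edgeR adjusted p = 0.00939). Glycogenin (gyg1), the primer of the glycogen particle, went from 24.8, 24.0 and 21.6 to 47.6, 39.6 and 40.6 FPKM (1.03 ± 0.16, edgeR adjusted p = 0.0211; 0.0561, 0.0775 and 0.0764 with hypoxia replicate 2, normoxia replicate 2 or normoxia replicate 3 left out). UDP-glucose pyrophosphorylase (ugp2), which makes the glucose donor, went from 51.2, 30.1 and 42.4 to 88.9, 84.8 and 70.1 FPKM (1.15 ± 0.25, edgeR adjusted p = 0.0391), a call that held without normoxia replicate 1 (0.0418) and was lost without any other single library (0.0511 to 0.106) and with no filter on low values (0.0509).

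In the entry routes of fructose, mannose and hexosamine, 5 of 16 tested genes were higher and 1 lower, with a median of 0.16. Phosphomannomutase 1 (pmm1), which makes mannose-1-phosphate, had the clearest change, from 4.67, 4.15 and 5.10 to 14.4, 15.2 and 19.7 FPKM (log2 change 1.97 ± 0.14, edgeR adjusted p = 0.00251). The next enzyme, the beta subunit of mannose-1-phosphate guanyltransferase (gmppb), went from 10.3, 12.3 and 10.1 to 19.2, 22.5 and 27.0 FPKM (1.22 ± 0.13, edgeR adjusted p = 0.00859). UDP-glucose epimerase (gale), which converts UDP-glucose and UDP-galactose, went from 36.2, 38.9 and 40.0 to 72.9, 98.5 and 86.4 FPKM (1.32 ± 0.14, edgeR adjusted p = 0.00767). The genes pmm1, gmppb and gale were called in each fit that leaves out 1 library. Phosphomannomutase 2 (pmm2) rose by 1.12 ± 0.19 (edgeR adjusted p = 0.0251; called without hypoxia replicate 3 or normoxia replicate 3, and 0.0510 to 0.0862 without any of the others). The alpha subunit LOC113634406 rose by 0.61 ± 0.14 (edgeR adjusted p = 0.0435), a call lost without any single library (0.0762 to 0.121), with library totals (0.146), with limma (0.135 and 0.131) and with no filter (0.0536).

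The lower gene of that list was LOC113646939, like glutamine-fructose-6-phosphate aminotransferase 2, the enzyme that takes fructose-6-phosphate into hexosamine synthesis. It stood at 321, 155 and 186 FPKM in normoxia and at 39.1, 65.8 and 80.3 FPKM in hypoxia, so that all hypoxia libraries lay below all normoxia libraries. Its log2 change was -1.71 ± 0.34 (edgeR adjusted p = 0.0344), and the call held without normoxia replicate 1 (0.0480) and was lost without any other single library (0.0612 to 0.0909). The summed mucous cell markers also stood lower in each hypoxia library (187 to 380 against 471 to 866 FPKM), and their part in this result was not tested.

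The other 3 lists held 1 called gene each. The genes that control fructose-2,6-bisphosphate, a signal to phosphofructokinase, had 1 of 5 higher, with a median of 0.56. That gene, LOC113648554, a PFKFB4-like kinase and phosphatase, stood at 10.3, 9.24 and 10.2 FPKM against 10.6, 13.8 and 15.2 FPKM. Its log2 change of 0.56 ± 0.13 (edgeR adjusted p = 0.0451) was not called without any single library (0.0630 to 0.137), with library totals (0.154), with limma (0.173 and 0.172) or with other filters (0.0598 and 0.0546). The pentose phosphate pathway had 1 of 10 higher, with a median of 0.30. The called gene was the transketolase-like LOC113658263, of the non-oxidative branch, at 72.2, 59.8 and 68.2 FPKM against 90.8, 105 and 114 FPKM (0.78 ± 0.14, edgeR adjusted p = 0.0255; called without normoxia replicate 1, and 0.0517 to 0.0861 without any of the others). The glycerol phosphate and serine branch had 1 of 6 higher, with a median of 0.25. It was phosphoserine phosphatase (psph), the last enzyme of serine synthesis, at 4.38, 5.17 and 6.43 FPKM against 10.2, 9.93 and 13.2 FPKM (1.22 ± 0.20, edgeR adjusted p = 0.0234; called without normoxia replicate 1, and 0.0510 to 0.0815 without any of the others).

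**Figure D5:**
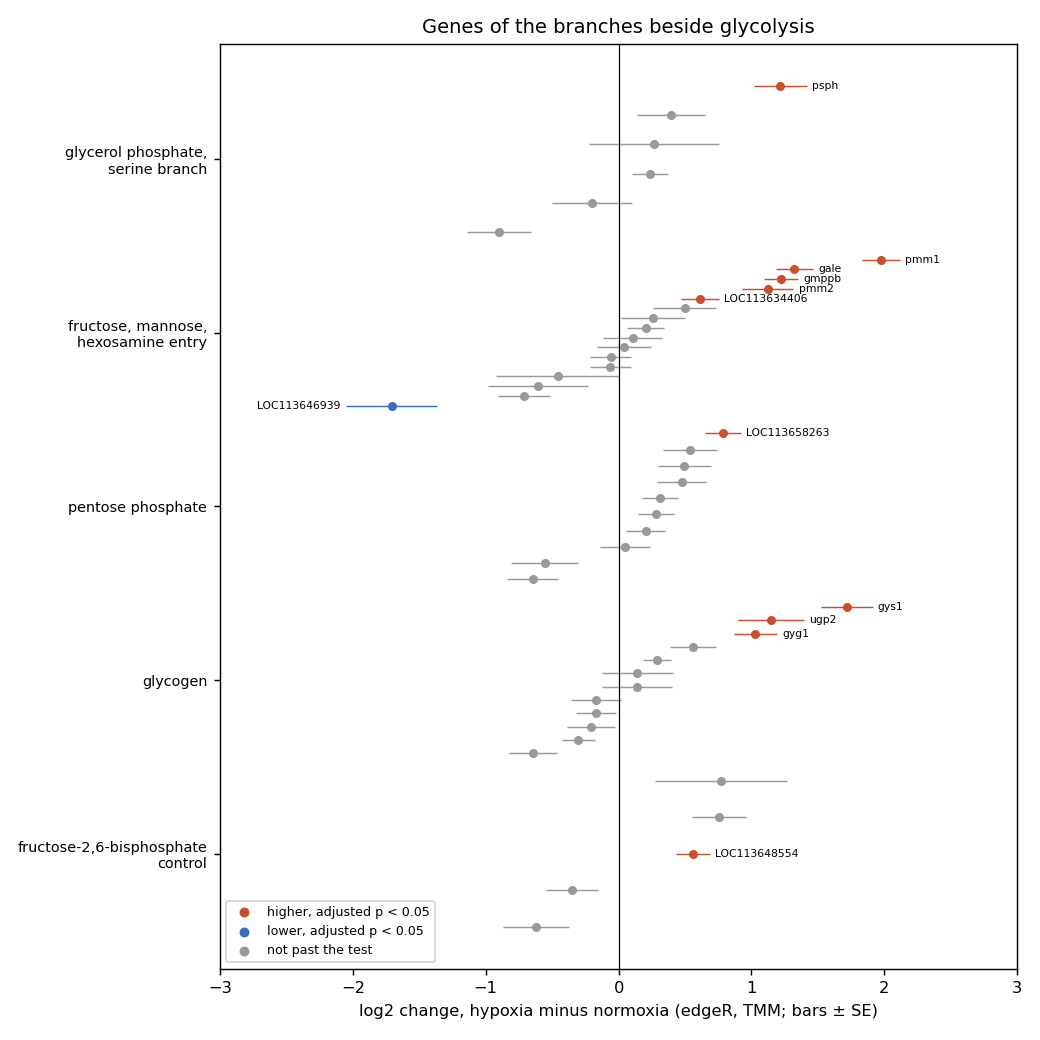
Log2 change (hypoxia minus normoxia, TMM-scaled edgeR fit) with SE bars for the tested genes of 5 pathway lists that branch from glycolysis; called genes are named. The 11 higher genes lie between 0.56 and 1.97 and the 1 lower gene, LOC113646939, at -1.71, while the list medians lie between 0.14 and 0.56.

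The annotation places many of the 52 genes in further pathway entries, which overlap in the same glycolysis genes; the counts are a description and were not compared by a test. Of the 30 that the carbon metabolism entry also holds, 11 were higher and 1 lower, and of the 10 in fructose and mannose metabolism, 6 were higher. Of the 6 in RNA degradation, where enolase and phosphofructokinase are listed, 4 were higher. The 10 in fatty acid degradation held 0 calls, as did the 11 in glycerolipid metabolism. Over all tested genes 5.39% were called higher and 4.15% lower, or 9.54% in either direction. With so few genes, 0 calls is near that share.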

How the data were processed

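The 6 gill libraries are poly(A)-selected RNA of pooled fish, read as paired ends on an Illumina instrument, per the labels' protocols. The submitters' processing notes name cutadapt 1.9 and HISAT; for the counter, strand setting, genome build and annotation, details were not given in the sources used here. Counts and FPKM per gene and library are what the deposited table holds, per the file headers; where the count is 0 the FPKM is written as 0.0001. Each column was tied to its sample through the code in the sample title. Genes were placed at enzyme steps by their KEGG orthology entry and description. Scaffold coordinates are those of the deposited table.

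Counts were fitted with edgeR 4.0.16 (TMM, quasi-likelihood, two-sided, R 4.3.3) over the 15312 genes that reached 1 FPKM in 3 or more of the 6 libraries, and a Benjamini-Hochberg adjusted p under 0.05 was called. Each SE was derived from the F statistic and the log2 change. TMM factors ran from 0.867 (hypoxia replicate 1) to 1.08 (normoxia replicates 2 and 3), and the common biological coefficient of variation was 0.329. The parts of counting and of the spread between pools in the precision were not separated. Libraries of a group differed by a chi-square of 137 to 224 per gene, so none was a copy. Isozyme ratios within a library used FPKM and an exact permutation test; gpi and LOC113638567 were left out for counts under 3. The fit was checked on simulated counts. A set recovery of changed genes was required only at a dispersion lower than the common one of these data. Alternatives used RLE factors, library totals, DESeq2 1.42.0, limma 3.58.1, other filters, a transcript length correction, a replicate block and leaving out each library.

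The members, the pathway and marker lists and the tests were chosen with earlier results of these data known. Named genes are all called members, the most abundant member of each step, the lowest and highest change among members not called, members next to the FPKM filter and called genes of the pathway lists. Other genes named (the members not called beside these, the genes set beside the muscle markers and rows that failed the filter) were chosen after their values were seen. No sequences are shown.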

Additional observations from a re-analysis of the deposited data

How the results depend on the processing

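The 14 called genes kept their direction in every alternative that was run. For each of these genes the FPKM values of the groups did not overlap. Leaving out 1 library could therefore hardly turn the direction, and its keeping is no support. The members called were 13 higher and 1 lower with RLE factors, 11 and 1 with library totals, no filter, filterByExpr or limma at a pseudocount of 0.1, 12 and 1 with limma at a pseudocount of 1, 14 and 1 with the length correction, and 19 and 1 with DESeq2. Leaving out 1 library gave 6 to 12 higher and 0 to 1 lower members, with a median of 0.21 to 0.30, and 68 to 490 higher and 64 to 422 lower genes over the whole table. The replicate numbers did not pair the libraries (same-number correlations of deviations -0.05, 0.02 and -0.05); the replicate block left 6 higher and 0 lower members and 122 higher and 120 lower genes, and with the length correction 8 and 0 members and 186 and 111 genes. Over all genes, the higher calls were 364 with library totals, 1792 with DESeq2, 479 and 436 with limma and 541 with no filter; the lower calls were 1540 with DESeq2, 321 with no filter, 392 with filterByExpr and 350 with the length correction. The causes of these differences were not tested. The members' median was 0.039 with library totals, 0.044 and 0.053 with limma, and it lay 0.19 to 0.34 above that of all genes in each alternative.

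Of the 52 members, 17 turned sign in at least 1 alternative, 12 of them with all libraries kept. Of the 14 called ones 0 did, which their lack of overlap between the groups made likely beforehand. The log2 change of gapdh ran from -1.12 to 0.84 with all libraries kept, that of LOC113642811 from -0.15 to 0.092, that of adpgk from -0.27 to 0.12 and that of LOC113641847 from -0.31 to 0.14; with 1 library left out, gpi, aldoa and eno3 turned too. The log2 change of g6pc3 was 0.0088 with RLE factors, 0.0086 with DESeq2, 0.045 with no filter, 0.024 with filterByExpr, 0.0068 with the replicate block and -0.14 to 0.093 when 1 library was left out. That of galm was -0.17 with library totals, -0.14 and -0.15 with limma, -0.042 with the length correction, -0.038 with the replicate block and length correction, and -0.034 to 0.089 when 1 library was left out. That of aldh2 was -0.067 with library totals and -0.058 and -0.059 with limma. Leaving out 1 library gave -2.20 to 0.37 for LOC113638567 and -0.25 to 0.13 for LOC113637748. It also turned the sign of isozyme ratio differences that overlapped between groups: adpgk (-0.076 to 0.46), gapdh (-4.24 to 1.10), LOC113645065 (-0.22 to 0.71), LOC113655026 (-0.75 to 0.068), LOC113662098 (-0.50 to 0.027), LOC113661224 (-0.043 to 0.15), LOC113649154 (-0.30 to 0.091) and aldh1a3 (-0.69 to 0.20). The 7 ratios whose groups did not overlap kept their sign in every alternative. Without overlap, leaving out 1 library cannot turn the sign, so this gives these ratios no support. Pools of 3 fish give no spread between single fish.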
